A study of Columba livia with 16 samples.

Results

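Among regions of the pigeon genome that carried an H3K27ac peak in the hindlimb buds of both breeds, 1229 also carried a peak in the forelimb bud of the Indian fantail and none in the forelimb bud of the racing homer. They were chosen by pooling the 4 deposited peak lists, joining intervals that overlapped by at least 1 bp, and keeping the merged regions with this pattern of lists. They make up 1229 of 26456 merged regions (4.65%, 95% Wilson interval 4.4–4.91%). Such intervals cover counting error only.

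The lists come from H3K27ac ChIP-seq on limb buds at HH25 (Hamburger-Hamilton stage 25), with 2 ChIP and 2 input libraries for each breed and limb, 16 in all. The Indian fantail is a feather-footed, small-muffed breed, and the racing homer is scale-footed. Whole limb buds were used, so the lists mix the tissues of the bud, and the number of embryos behind a library is not given in the sources used here. The replicates of a breed and limb were merged into a single list, which leaves no replicate error for any value given here and nothing to test across samples. Read depth is unknown, and a place without a peak in a list is not shown to lack the mark. The Indian fantail lists hold 15357 forelimb and 22407 hindlimb peaks, and the racing homer lists hold 16474 forelimb and 18821 hindlimb peaks.

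H3K27ac is an acetylated form of histone H3 found at active enhancers and promoters. Forelimb and hindlimb buds are built by largely the same genes, and their enhancers are for the most part active in both. A few transcription factors differ between the limbs, among them Pitx1, which specifies hindlimb identity, and Tbx5, which initiates the forelimb. Regions with peaks in both hindlimbs and the forelimb of a single breed show where the forelimb lists of the breeds part at places that the hindlimb lists share.

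The paper places Tbx5 on scaffold 70, but its text gives no coordinate for the gene. The window of scaffold 70 from 0.64 to 0.76 Mb was taken as its neighbourhood. Since the source of these bounds is not stated, the window is no independent check of the limb labels. That window has 9 Indian fantail forelimb peaks and 4 Indian fantail hindlimb peaks. It has 10 peaks in the racing homer forelimb list and 0 in the racing homer hindlimb list. The paper's text likewise gives no coordinate for Pitx1 on scaffold 79. The window of scaffold 79 from 6.5 to 7.0 Mb was taken as its neighbourhood, and the source of these bounds is not stated either. The longest racing homer hindlimb peak in that window spans 20931 bp, and 0 forelimb peaks of either breed lie over it. In that window the Indian fantail lists have 17 forelimb and 32 hindlimb peaks, and the racing homer lists have 25 forelimb and 39 hindlimb peaks. The paper reports that part of this window is deleted in the Indian fantail, so no Indian fantail peak can lie there. How far the deletion lowers the Indian fantail counts was not tested. Within each breed, hindlimb peaks were the more numerous in the Pitx1 window and forelimb peaks in the Tbx5 window. The hindlimb list was also the longer over the whole genome, with 22407 against 15357 peaks in the Indian fantail. In the racing homer, it held 18821 against 16474 peaks. Whether the Pitx1 window goes beyond this was not tested. The Tbx5 window held some Indian fantail hindlimb peaks as well.

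Both hindlimb lists had a peak in 14914 merged regions. Most of these, 9718 (65.2%), had a peak in all 4 lists, and 2464 (16.5%) had no forelimb peak at all. The 1229 regions with only an Indian fantail forelimb peak form 8.24% of the 14914. The mirrored pattern, with a racing homer forelimb peak and no Indian fantail forelimb peak, was found in 1503 regions (10.1%).

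Seen from the forelimb, a racing homer forelimb peak was missing in 11.2% (10.6–11.8%) of the 10947 regions with peaks in both hindlimbs and in the Indian fantail forelimb. In the other direction, an Indian fantail forelimb peak was missing in 13.4% (12.8–14%) of the 11221 regions with peaks in both hindlimbs and in the racing homer forelimb. Because the rule itself counts these peaks, the shares describe the lists and are no test of a difference between breeds. The ratio of 1229 to 1503 regions was 0.818 (0.758–0.882). The ratio turned with the length of the forelimb lists. With the racing homer forelimb list shortened by score to the 15357 peaks of the Indian fantail list, the counts were 1446 and 1358 and the ratio was 1.06. No excess of either breed can thus be read from the number of these regions.

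The forelimb peaks that placed regions in this set were mostly weak. Each peak carries the score of the authors' peak caller, which starts at 50, has a scale that is not stated, and is compared only within a list. In the Indian fantail forelimb list the scores ran from 50.21 over a median of 73.42 to 720.5, where the median of the whole list is 119. A score under the list median was found in 1077 of the 1229 regions (87.6%), and 301 regions (24.5%) had a score under 60. Most of these forelimb peaks were therefore in the lower part of their list, and 16 had a score of at least 200.

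The hindlimb peaks of the same regions were stronger within their own lists. In the Indian fantail hindlimb list the scores had a median of 131.5 (range 50.14 to 1374), close to the list median of 135.8. In the racing homer hindlimb list the median was 92.8 (range 50.02 to 530.7), against a list median of 123.3. As rank percent, the share of a list's peaks with the same or a lower score, the median places were 48.8 in the Indian fantail hindlimb list, 36.7 in the racing homer hindlimb list and 25.1 in the Indian fantail forelimb list. The Indian fantail hindlimb peak was thus near the middle of its own list, and the forelimb peak of the same breed stood lower in its own. The racing homer hindlimb peaks fell between them. The Indian fantail lists differ in length, with 22407 hindlimb and 15357 forelimb peaks. Regions in all 4 lists also ranked lower in the Indian fantail forelimb than in its hindlimb, with medians of 65.2 and 76.9.

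Regions of the mirrored pattern looked alike. Their racing homer forelimb peaks had a median score of 79.04 and a median rank percent of 29.1, and 82.4% lay under the list median. A racing homer forelimb score of at least 200 was found in 36 of the 1503 regions, and the highest was 1262. Their hindlimb peaks had median rank percents of 46.1 (Indian fantail) and 38.5 (racing homer). Regions with no forelimb peak had weaker hindlimb peaks, with median rank percents of 34.9 and 27.2. Regions in all 4 lists were stronger in every list, with median rank percents of 65.2 and 76.9 in the Indian fantail forelimb and hindlimb and 71.7 and 67.1 in the racing homer hindlimb and forelimb. Both patterns with a single forelimb list therefore lay between the hindlimb-only regions and the regions of all 4 lists in hindlimb score.

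**Figure D1:**
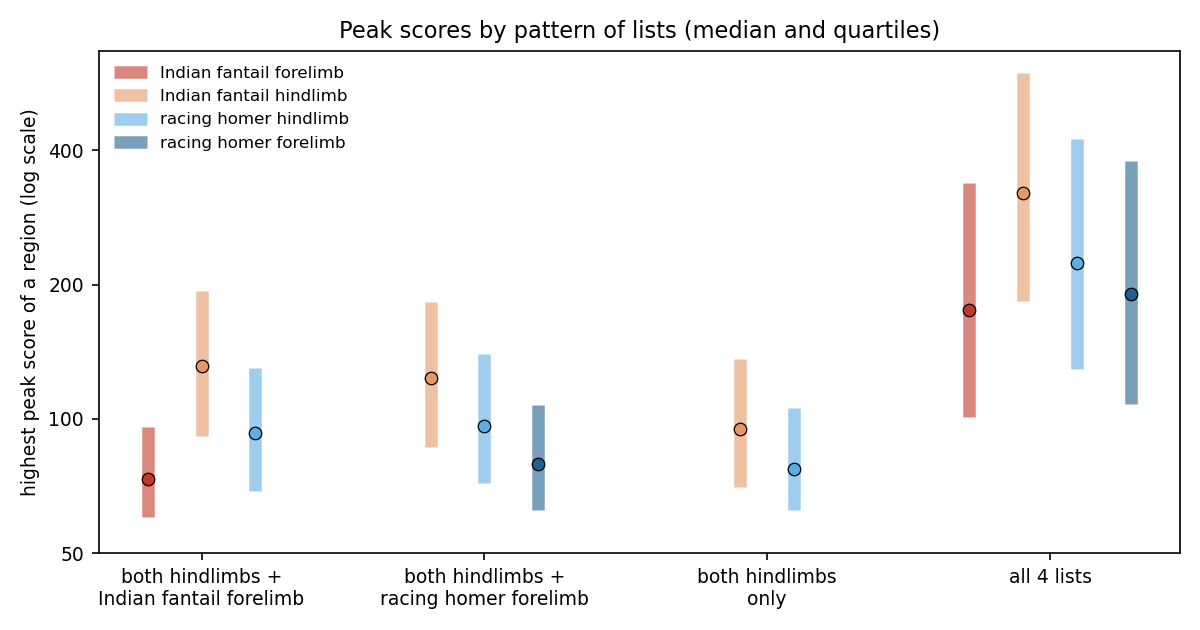
Highest peak score of each region (vertical log axis, the authors' score, no unit) by pattern of lists; points are medians, bars run between the quartiles and colours mark the 4 lists. For the 1229 regions with both hindlimb peaks and an Indian fantail forelimb peak, the forelimb median is 73.42 and the hindlimb medians are 131.5 and 92.8. The regions in all 4 lists stand higher in each list, and scores are compared only within a list.

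How often such a region occurred depended on hindlimb strength. The 14914 regions were ranked by the lower of their hindlimb rank percents and split into 10 parts of equal size. In the 4 weakest parts, between 13.8% and 14.3% of regions had only an Indian fantail forelimb peak, and the share then fell to 7.31% in the sixth part, 2.01% in the eighth and 0 of 1491 regions in the tenth. The mirrored pattern ran beside it, with 17% of the first part, 9.93% of the sixth and 2.35% of the eighth. Over the same parts, the share of regions in all 4 lists climbed from 22.7% to 99.5%. A difference between the forelimb lists, in either direction, was thus found mostly where the lower hindlimb rank percent was weak or middling. The rule counts the same hindlimb peaks that order the parts, so this is a description and no test. With both hindlimb rank percents at 75 or more, 19 regions had only an Indian fantail forelimb peak, 25 had only a racing homer forelimb peak and 3878 were in all 4 lists.

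**Figure D2:**
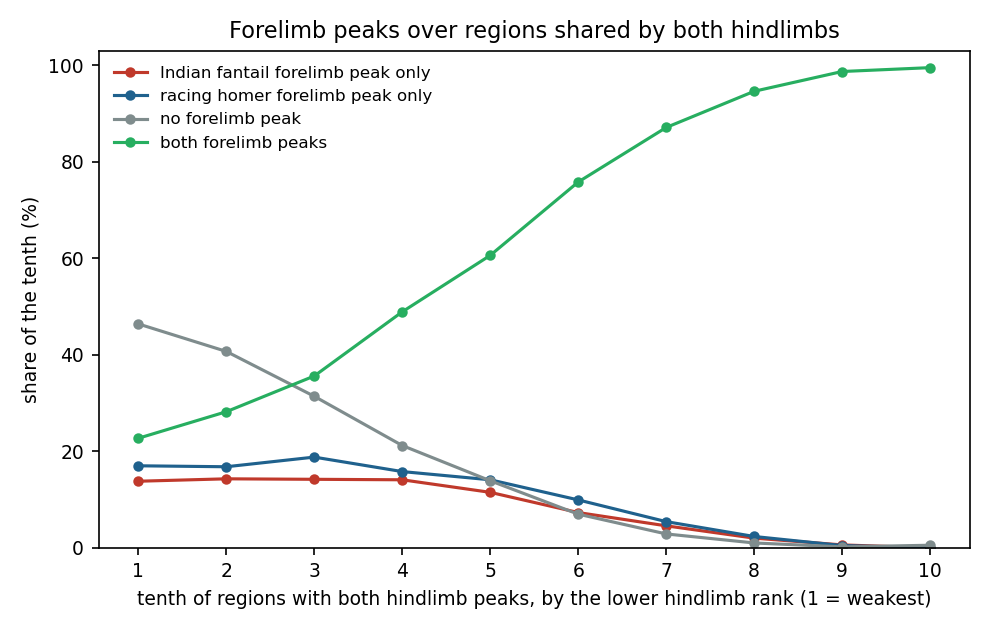
Share of regions (%) with an Indian fantail forelimb peak only, a racing homer forelimb peak only, neither or both, for 10 equal parts of the 14914 regions with peaks in both hindlimb lists, ordered from the weakest to the strongest lower hindlimb rank. The red line for the Indian fantail forelimb stays near 14% over the 4 weakest parts and reaches 0 in the strongest, and the blue line for the racing homer forelimb has the same shape.

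Within a region, the scores of the 3 lists were only loosely tied. Spearman's rho over the 1229 regions was 0.39 between the hindlimbs of the breeds, 0.27 between the limbs of the Indian fantail and 0.19 between the Indian fantail forelimb and the racing homer hindlimb. These are descriptions across regions that share libraries, and scores near the floor of 50 are cut off. The forelimb rank percent was the lowest of the 3 in 726 regions (59.1%) and the highest in 144 (11.7%). In the mirrored pattern, the racing homer forelimb rank percent was the lowest in 51.8% of regions and the highest in 16.8%. Of the hindlimb peaks, the Indian fantail one held the higher rank percent in 829 regions (67.5%), against 66% of the regions in all 4 lists, 61.6% of the mirrored pattern and 60.9% of the hindlimb-only regions. All 3 rank percents were above 50 in 60 regions (4.88%) and below 50 in 503 (40.9%), against 6.59% and 40.8% of the mirrored pattern.

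**Figure D3:**
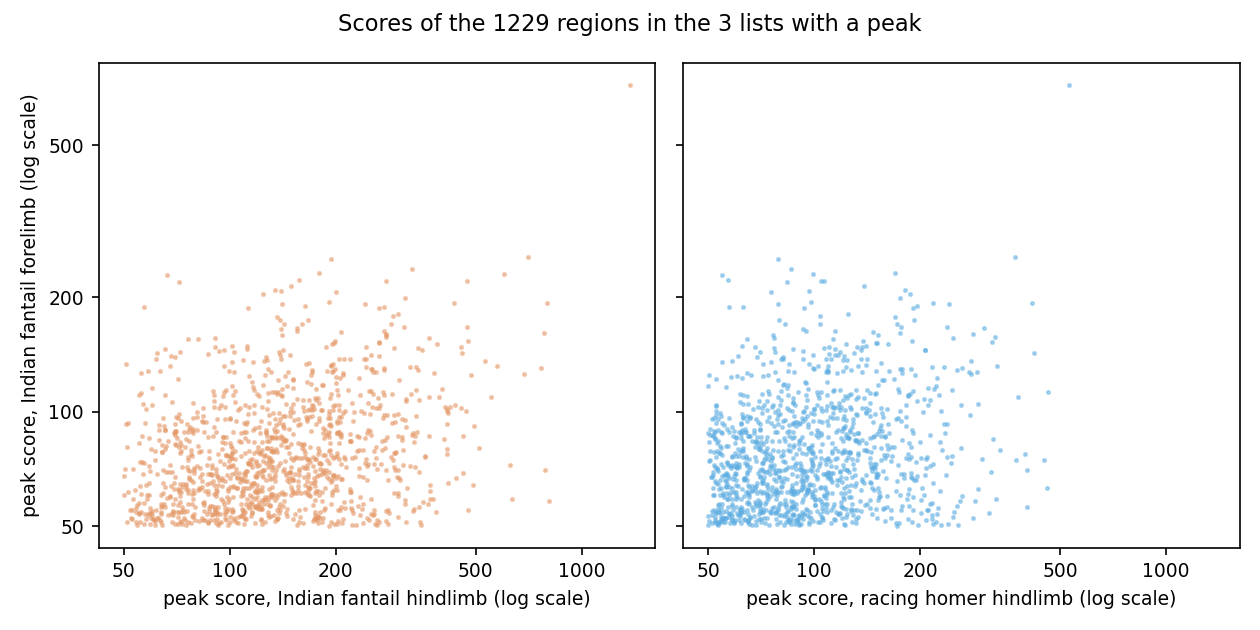
Indian fantail forelimb score (vertical log axis) against Indian fantail hindlimb score (left) and racing homer hindlimb score (right; horizontal log axes) for the 1229 regions, 1 point each. Points crowd along the lower edge at the floor of 50, and a single point, the region of scaffold 836, stands apart with a forelimb score of 720.5.

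The peaks of the 3 lists lay on the same sequence. A base covered by all 3 lists was found in 1216 of the 1229 regions (98.9%), so that few regions were made only by chains of neighbouring peaks. Each list had a single peak in 1131 regions (92%). The centres of the Indian fantail forelimb and hindlimb peaks were a median of 140 bp apart, and those of the Indian fantail forelimb and racing homer hindlimb peaks 128 bp. Forelimb peaks were somewhat narrower, at a median of 0.833 times the width of the Indian fantail hindlimb peak, and in 624 regions (50.8%) the strongest one lay wholly inside a hindlimb peak of its breed. This was not particular to these regions. In regions of all 4 lists, Indian fantail peaks covered a median of 2052 bp in the forelimb and 2438 bp in the hindlimb.

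The merged regions were 325 to 14271 bp wide with a median of 1929 bp, and together they covered 2.51 Mb. Regions of the mirrored pattern had a median width of 1899 bp, hindlimb-only regions 1653 bp and regions in all 4 lists 2770 bp. The widest regions of these patterns spanned 17411, 36032 and 41656 bp in the same order. A width of at least 5000 bp was reached by 18 of the 1229 regions (1.46%), against 0.998% of the mirrored pattern, 0.771% of the hindlimb-only regions and 18.4% of the regions in all 4 lists. Broad domains were thus few in each of these 3 patterns and commoner in the regions of all 4 lists. The width is that of the joined peaks, so a region with peaks in more lists can be wider for that reason alone. Within the Indian fantail forelimb list, peaks covered a median of 1281 bp in the 1229 regions and 2052 bp in regions of all 4 lists.

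A racing homer forelimb peak was often not far away. The nearest one lay a median of 10214 bp from the region (quartiles 2787 and 32712 bp), and 13 regions had none on their scaffold. In 177 regions (14.4%) it lay within 1000 bp and in 21 within 100 bp. In the mirrored pattern, an Indian fantail forelimb peak lay within 1000 bp of 15% of regions, at a median distance of 10115 bp. Of the 177 near peaks, 133 belonged to a neighbouring region present in all 4 lists. Such regions were also the commonest place of a racing homer forelimb peak over the whole genome, with 9718 regions. The next patterns with such a peak were the mirrored one (1503 regions) and racing homer forelimb alone (1165 regions). The count of 133 is therefore not read as a trait of these regions. The 177 regions were narrower than the remaining 1052 regions, with medians of 1250 and 1996 bp, while their Indian fantail forelimb scores had medians of 72.81 and 73.44.

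The regions were spread over 378 of the 837 scaffolds with a merged region. Among the 61 scaffolds with at least 100 merged regions, they took between 1.85% (scaffold 538, 2 of 108) and 8.26% (scaffold 244, 10 of 121) of the regions, with a median of 4.5%. Neighbours on the scaffold had nearly the makeup of the genome: of 2378 flanking regions, 128 (5.38%) had the same pattern, against 4.65% of all merged regions, and 36% were in all 4 lists, against 36.7% of all. A region of this kind stood alone in 1102 cases and next to another in 62 pairs, and a single run held 3.

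That run lies on scaffold 122. Its regions span 4173637 to 4177822, 4194060 to 4197380 and 4200525 to 4202611, and 16237 and 3144 bp separate them. The third region was the strongest, with scores of 151.3 in the Indian fantail forelimb, 198 in the Indian fantail hindlimb and 149.7 in the racing homer hindlimb. In the first, the forelimb score was 86.22, the Indian fantail hindlimb scores were 77.29 and 127.2, and the racing homer hindlimb score was 58.75. Its forelimb peak, from 4174486 to 4176203, shared no base with its racing homer hindlimb peak, from 4176501 to 4177741. The Indian fantail hindlimb peak of 127.2 overlapped both and joined them into a region. The length of the run rests on this joining. In the second, the scores were 79.05 in the Indian fantail forelimb, 119.1 in the Indian fantail hindlimb and 72.93 in the racing homer hindlimb. The nearest racing homer forelimb peak lay 11026 bp from the first region and 37914 bp from the third.

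The region with the highest scores in all 3 lists lies on scaffold 836 from 161877 to 176147 and is also the widest, at 14271 bp. A single Indian fantail forelimb peak covers it from 161896 to 176147 (score 720.5, rank percent 94.1). The Indian fantail hindlimb peak runs from 161877 to 174801 (score 1374, rank percent 96.6). Adjoining racing homer hindlimb peaks run from 161937 to 164449 (score 256.3) and from 164487 to 174777 (score 530.7, rank percent 89.6). The mark thus spread over nearly the same stretch in both Indian fantail limbs and the racing homer hindlimb. The racing homer forelimb list leaves a gap of 21587 bp here. Its flanking peaks lie at 155545 to 158630 (score 210.9) and at 180218 to 188694 (score 464.4).

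Beside that gap, the forelimb lists shared the nearest region on the right and differed over the nearest one on the left. Over all merged regions, 36.7% were in all 4 lists. Of the 64 merged regions on scaffold 836, 39 were in all 4 lists, 5 had the mirrored pattern and 2 had peaks in both hindlimbs and the Indian fantail forelimb only. The second of these lies from 150556 to 153411 and is weak in the forelimb, with a score of 54.05 (rank percent 5.52). It scored 256.3 in the Indian fantail hindlimb (rank percent 71.1) and 87.33 in the racing homer hindlimb (rank percent 33.6). The Indian fantail forelimb list has 52 peaks on this scaffold, against 68 in the racing homer forelimb list. Whether the missing peak is seen in each racing homer forelimb replicate cannot be told from a list that combines them. Apart from Pitx1 and Tbx5, whose scaffolds are taken from the study, no gene is named by position, since no annotation of the scaffolds was used.

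**Figure D4:**
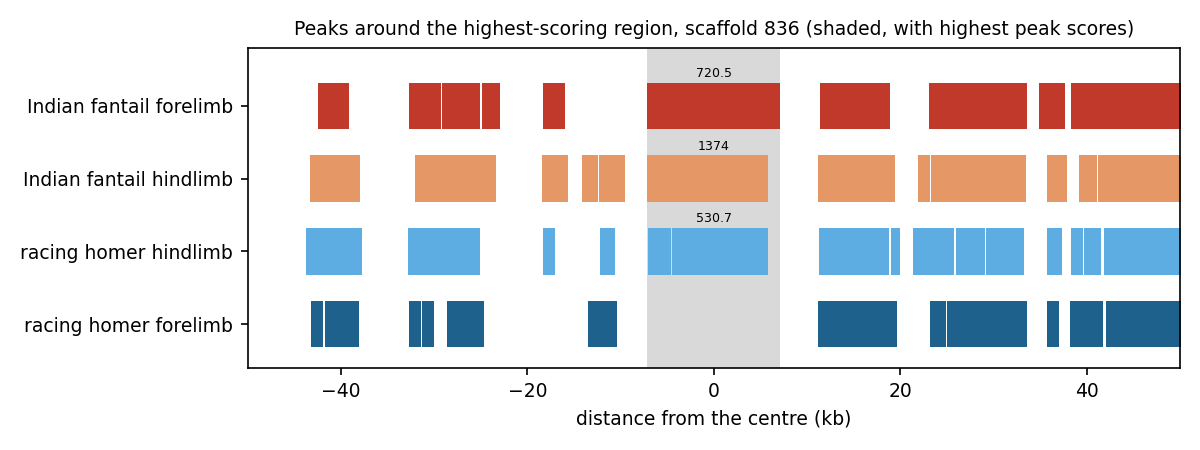
Peaks of the 4 lists within 50 kb of the centre of the strongest region (horizontal axis, distance in kb; the shaded band is the region and the numbers are the highest score of each list in it). The Indian fantail forelimb, the Indian fantail hindlimb and the racing homer hindlimb cover most of the band, with scores of 720.5, 1374 and 530.7. The racing homer forelimb row is empty there and has peaks on both sides. Over the nearest of these on the left, the Indian fantail forelimb row is empty.

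After it, the Indian fantail forelimb scores drop to 255.4. That region lies on scaffold 461 from 464555 to 467803, with 705.5 in the Indian fantail hindlimb and 372.7 in the racing homer hindlimb, and the nearest racing homer forelimb peak is 157580 bp away. On scaffold 314 from 187812 to 190626, the forelimb score was 229.8, the Indian fantail hindlimb score 603.6 and the racing homer hindlimb score 99.12. On scaffold 101 from 19287987 to 19291670, the values were 220.8 in the Indian fantail forelimb, 471.7 in the Indian fantail hindlimb and 104.8 in the racing homer hindlimb. By rank percent, the Indian fantail hindlimb peak stood highest in each of these regions, between 85.1 and 90.9, and the racing homer hindlimb peaks stood at 83.8 on scaffold 461, 39.9 on scaffold 314 and 42.5 on scaffold 101.

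In other regions of the highest 10 the forelimb peak stood level with the Indian fantail hindlimb peak or above it. The scores on scaffold 66 from 839147 to 841254 were 251.4 in the Indian fantail forelimb, 194.1 in the Indian fantail hindlimb and 78.77 in the racing homer hindlimb. Scaffold 818 from 194193 to 196204 had 221.6 in the Indian fantail forelimb, 157.3 in the Indian fantail hindlimb and 56.87 in the racing homer hindlimb. By rank percent, both had the forelimb peak highest, at 76.5 on scaffold 66 and 73 on scaffold 818. On scaffold 36 from 1092580 to 1094871 (forelimb score 237) the Indian fantail hindlimb rank percent was the higher by a small margin, 77.6 against 75 in the forelimb. On scaffold 772 from 254713 to 257511 (forelimb score 220.6) it was also the higher, 73.4 against 72.9 in the forelimb. The remaining 2 lie on scaffold 3979.

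Scaffold 3979 is short of regions, with 13 merged regions in all, and both of its regions with this pattern are among the highest 10. The region from 84928 to 88330 had scores of 231.6 in the Indian fantail forelimb, 178.8 in the Indian fantail hindlimb and 169.5 in the racing homer hindlimb. The region from 39768 to 42852 had 228.5 in the Indian fantail forelimb, 66.12 in the Indian fantail hindlimb and 54.88 in the racing homer hindlimb. In this region the forelimb peak filled all 3085 bp, and the hindlimb peaks covered 974 bp (Indian fantail) and 1193 bp (racing homer). It had the widest lead of the forelimb rank percent over both hindlimbs, 74 against 16.5 and 6.44. A racing homer forelimb peak lay 1472 bp away.

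The 144 regions in which the forelimb rank percent led had a median forelimb score of 110.7 (range 60.44 to 251.4), with medians of 82.55 in the Indian fantail hindlimb and 76.66 in the racing homer hindlimb. Next in the size of that lead, by a ranking chosen after the values were seen, came scaffold 122 from 50020 to 51952. It had 188.2 in the Indian fantail forelimb, 57.14 in the Indian fantail hindlimb and 62.86 in the racing homer hindlimb, and a racing homer forelimb peak lay 104 bp from it. The rule asks only for a hindlimb peak, so the set holds regions whose hindlimb peaks barely passed the floor.

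At the other end stand regions whose racing homer hindlimb peak had the highest rank percent of the 3. Scaffold 115 from 1055806 to 1059454 had a racing homer hindlimb score of 462, with 112.7 in the Indian fantail forelimb and 272.5 in the Indian fantail hindlimb. Scaffold 216 from 6478660 to 6481821 had 458 in the racing homer hindlimb, with 63.18 in the Indian fantail forelimb and 317.9 in the Indian fantail hindlimb. On scaffold 34 from 14692668 to 14697105 the racing homer hindlimb score was 422.8, the Indian fantail forelimb score 142.3 and the Indian fantail hindlimb score 457.4. In these regions a strong hindlimb element of both breeds was met by a modest peak in the Indian fantail forelimb. Over the 19 regions with both hindlimb rank percents at 75 or more, the Indian fantail forelimb scores had a median of 84.66 (range 50.37 to 720.5), and the regions of scaffolds 836 and 461, with the highest forelimb scores of all, are among them.

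Strong regions tended to be wider: the 19 with both hindlimb rank percents at 75 or more had a median width of 3784 bp, and the 16 with an Indian fantail forelimb score of at least 200 had 3045 bp, against 1929 bp over all 1229. The 5 widest regions themselves varied in score. After scaffold 836, the widest region lies on scaffold 38 from 3687410 to 3693623, at 6214 bp. It was pieced together from a pair of peaks in each list, and its Indian fantail forelimb scores were 56.47 and 55.38. The region on scaffold 64 from 986201 to 992314, at 6114 bp, had Indian fantail forelimb peaks of 125.1 and 58.06 under a single Indian fantail hindlimb peak of 484.1. The region on scaffold 1398 from 229838 to 235799, at 5962 bp, had 79.79 in the Indian fantail forelimb and 90.32 in the racing homer hindlimb. Its Indian fantail hindlimb peaks scored 415.4 (229838 to 233087) and 86.3 (233399 to 235799). The forelimb peak, from 232570 to 235309, lay mostly past the end of the peak of 415.4.

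Scaffold 79, on which Pitx1 lies, held more of these regions than any other scaffold, 29 of its 431 merged regions (6.73%, against 4.65% of all merged regions), with 21 of the mirrored pattern. By share, scaffolds 244 (8.26%), 122 (8.21%) and 237 (7.44%) stood higher, among scaffolds with at least 100 merged regions. On scaffold 79 the scores ran from 52.32 over a median of 75.15 to 180.6 in the Indian fantail forelimb. They ran from 72.04 over 174.5 to 783.4 in the Indian fantail hindlimb and from 54.3 over 104.7 to 448.9 in the racing homer hindlimb. Beside the medians of all 1229 regions, 73.42, 131.5 and 92.8 in the same order of lists, the hindlimb medians of scaffold 79 were higher and the forelimb median was close. The 29 regions were spread from 799732 to 16035783, and the highest forelimb score, 180.6, was found from 14218052 to 14220567.

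The window from 6.5 to 7.0 Mb of scaffold 79, taken as the neighbourhood of Pitx1, holds 38 merged regions. Of these, 3 had peaks in both hindlimbs and the Indian fantail forelimb only, and 5 had the mirrored pattern. Over all merged regions, these patterns make up 4.65% and 5.68%. Counts this small are not read as a trait of the window. Neither pattern can occur in the part of this window that the paper reports as deleted in the Indian fantail, since both need an Indian fantail hindlimb peak. The region from 6881269 to 6887214 had an Indian fantail forelimb score of 160.7, an Indian fantail hindlimb score of 783.4 and racing homer hindlimb scores of 88.83 and 174.9. The region from 6832805 to 6837402 had 74.8 in the Indian fantail forelimb, 291.4 in the Indian fantail hindlimb and 448.9 in the racing homer hindlimb. The region from 6607847 to 6613768 had a forelimb score of 52.32, near the floor. Its forelimb peak, from 6612072 to 6613605, overlapped the Indian fantail hindlimb peak of 209.9 and the racing homer hindlimb peak of 71.11. The racing homer hindlimb peak of 216.8 and the Indian fantail hindlimb peak of 142.6 lay beside the forelimb peak and shared no base with it. By rank percent, the Indian fantail hindlimb peak led in the first of these regions, 92.1 against 63.5 in the racing homer hindlimb, and the racing homer one in the second, where the Indian fantail hindlimb stood at 74.4 and the racing homer hindlimb at 87.4. The long racing homer hindlimb peak of this window, at 6978327 to 6999257, lies 91112 bp from the nearest of them and has no forelimb peak in either breed.

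**Figure D5:**
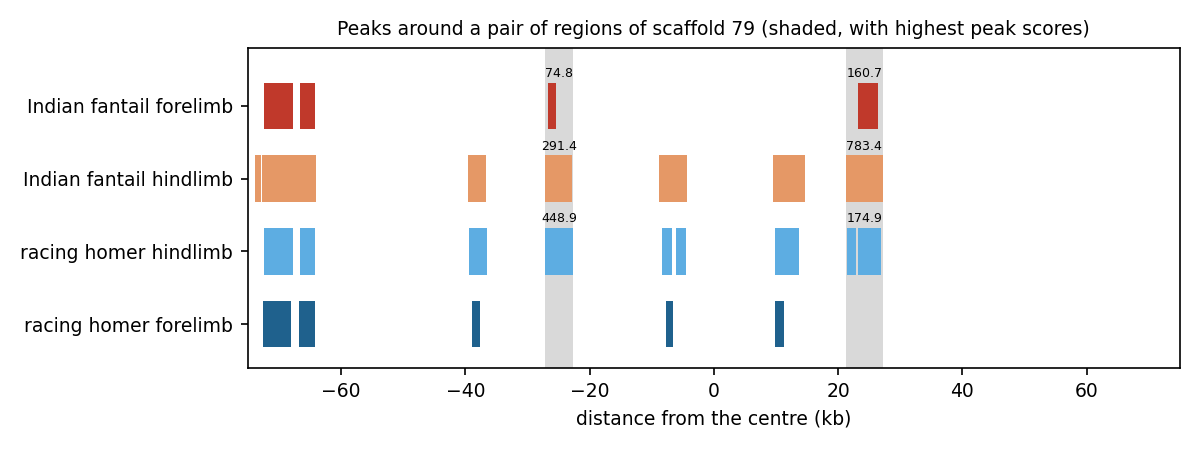
Peaks of the 4 lists within 75 kb of the midpoint between a pair of regions on scaffold 79 (horizontal axis, distance in kb; shaded bands are the regions from 6832805 to 6837402 and from 6881269 to 6887214, with the highest score of each list). Indian fantail forelimb peaks with scores of 74.8 and 160.7 lie in the bands, and the racing homer forelimb has peaks only outside them.

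The map also shows the mirrored pattern between the bands, where racing homer forelimb peaks with scores of 60.9 and 81.09 lie over hindlimb peaks of both breeds and the Indian fantail forelimb list has none. Of the Indian fantail forelimb scores in the bands, 74.8 lies under and 160.7 over the list median of 119, and both racing homer forelimb scores lie under the list median of 120.5.

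On scaffold 70, 3 of 41 merged regions had peaks in both hindlimbs and the Indian fantail forelimb only. That is 7.32%, against 4.65% of all merged regions, and 2 regions had the mirrored pattern. None of the 3 lay in the Tbx5 window. That window has 0 racing homer hindlimb peaks, so neither pattern could occur in it. From 468864 to 471748 the scores were 100.2 in the Indian fantail forelimb, 413.2 in the Indian fantail hindlimb and 93.63 in the racing homer hindlimb. From 168540 to 169238 they were 66.52 in the Indian fantail forelimb, 76.75 in the Indian fantail hindlimb and 101.7 in the racing homer hindlimb. From 872919 to 874336 they were 60.77 in the Indian fantail forelimb, 77.93 in the Indian fantail hindlimb and 87.71 in the racing homer hindlimb. None of the 3 forelimb scores reached the list median of 119.

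The rule has an edge in the Indian fantail forelimb list and another in the racing homer forelimb list. The 5 regions with the lowest Indian fantail forelimb scores, between 50.21 and 50.37, were kept because the peak passed the floor of 50. One of them, on scaffold 101 from 3935630 to 3939337, had hindlimb scores of 349.8 (Indian fantail) and 256.3 (racing homer). Just outside the rule, 5 regions with peaks in the other 3 lists had racing homer forelimb scores between 50.04 and 50.16, and their Indian fantail forelimb scores ran from 51.61 to 90.23. The lowest of them lies on scaffold 378 from 3404876 to 3405590, with 53.76 in the Indian fantail forelimb and 50.04 in the racing homer forelimb.

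The floor also decided which regions belonged. When peaks under the median score of their list were dropped from all 4 lists, 566 regions had the pattern, and 60 of them were among the 1229. The other 506 (89.4%) had a peak in all 4 lists before the change, so that they entered through the loss of a racing homer forelimb peak of low score. When a score of at least 100 was asked of the 3 lists with a peak and the racing homer forelimb list was left whole, 140 regions remained, of which 139 overlapped the 1229. The region of scaffold 836 has scores above 100 in all 3 lists and belongs to these.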

How the data were processed

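The deposited files are 4 peak lists, one per breed and limb, in which the authors combined the replicates. Their score column is the deposited score of the peak caller, whose scale is not stated. The submitters' processing notes name CASAVA, Bowtie2 2.2.3, SAMtools, MACS 1.4.2 and MACS2 2.0.10.20130915; the genome build is not given in the sources used here. The authors' tables of their own bdgdiff comparison between hindlimbs, with likelihood ratios, were not used.

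Intervals were merged at an overlap of 1 bp, coordinates are 1-based, and a region's score in a list is that of its highest peak. Rank percent is the share of the list's peaks with that score or a lower one. Intervals of 95% are Wilson intervals. Since peaks chose the regions, no test was run. Named regions are the 10 highest by Indian fantail forelimb score, the 5 highest by racing homer hindlimb score, the 5 widest, those of scaffolds 79 (by range, with the Pitx1 window in full) and 70, the longest run, and those at the rule's edge (by range). Regions and lists were chosen with earlier results of these data known. Motif counts and nearest genes were not run, since no genome of these scaffolds was used. Python 3.11.15, numpy 2.4.6, scipy 1.17.1 and matplotlib 3.10.9 were used; on simulated data, 19 of 19 checks were recovered.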

Additional observations from a re-analysis of the deposited data

How the results depend on the processing

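The number of regions stayed within 1.5 times 1229 (927 to 1446) with lists of equal size and with joining at 500 or 1000 bp. The same held with regions left out that had a peak of the missing list within 1000 bp. It also held with forelimb lists of equal size, a setting chosen after seeing the data. A similar count is not the same set of regions: with all lists of equal size, 770 of the 927 regions overlapped the 1229. Direct overlap gave 1409 racing homer hindlimb peaks, and a mutual overlap of at least 50% gave 1053 peaks. These are counts of peaks rather than of merged regions. The number of regions moved to 566 with scores at or above the list median and to 140 with scores of at least 100 in the 3 lists. The ratio to the mirrored pattern, 0.818, moved to 0.712 and 0.601 under these 2 settings and reversed to 1.06 with all lists of equal size and to 1.06 with forelimb lists of equal size. The counts rest on the score floor and the lengths of the lists, and the depth behind both is unknown. No paired analysis was possible because each list combines its replicates, and for the same reason none was left out.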
